A study of Mus musculus with 6 samples.

Results

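The pre-mRNA splicing factors described here were taken by name from a whole mouse genome array. They were all non-control probes whose gene name in the array files begins with Sf3a, Sf3b, Snrp, Hnrnp or U2af, or is Prpf, Srsf or Sfrs followed by a number. These were 110 of 39429 probes, and they carried 70 of the 31791 gene names on the array. The names fell into 6 families, namely SF3 (10 probes of 8 genes), U2AF (6 of 3), snRNP (21 of 12), PRPF (17 of 13), SR (22 of 15) and hnRNP (34 of 19).

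The study compared hematopoietic stem cells with and without p190-B, a GTPase activating protein encoded by Arhgap5, to ask what its loss does to self-renewal over serial transplantation. Fetal liver cells of p190-B-/- embryos or of wild-type (WT) littermates, on the C57BL/6J background, were transplanted with competitor marrow into lethally irradiated congenic mice, and marrow of those mice was passed on to irradiated congenic secondary recipients. LSK-SLAM cells (Lin- c-Kit+ Sca+ CD150+ CD48-) were then sorted from 3 secondary recipients of WT cells and 3 secondary recipients of p190-B-/- cells, isolated at independent times. Amplified cDNA of each mouse was put on an array of its own with 1 dye. All 6 recipients shared irradiation, transplantation and the wild-type host. The deletion was present from the germline and is lethal to the animal. The gate as described names no donor marker, so competitor or host cells could be among the sorted cells of either group, and their share was not measured.

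Splicing factors recognise the ends of introns and build the spliceosome on them. U1 binds the start of an intron, U2AF and the SF3 subunits of U2 settle on its end and branch point, the Prpf proteins belong mainly to the U4/U6.U5 particle or to the remodelling steps, and SR and hnRNP proteins bind exons and introns and shift the choice of splice site. In blood stem cells, recurrent mutations of SF3B1, SRSF2, U2AF1 and ZRSR2 in myelodysplastic syndromes have made this group of genes a subject of study.

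Each array measured the splicing factors to a different extent. Values are given below for replicates 1, 2 and 3 of the WT group and then replicates 1, 2 and 3 of the p190-B-/- group. The 75th percentile of the processed signal, the number each array was scaled by, was 125, 227 and 53.9 in WT and 385, 321 and 252 in p190-B-/-. Of the 110 splicing factor probes, 50, 66 and 49 were well above background on the WT arrays and 71, 55 and 65 on the p190-B-/- arrays. As shares these were 45.5%, 60% and 44.5% against 64.5%, 50% and 59.1%, where all probes of the array gave 48.8%, 67.1% and 50.9% against 73.3%, 53.4% and 64.5%. The dimmest array was WT replicate 3 and the brightest p190-B-/- replicate 1, and the ranges of the groups overlapped in the share of probes detected but not in the scaling number. Probes above background on 1 array only numbered 1, 4 and 1 on the WT arrays and 5, 4 and 3 on the p190-B-/- arrays. The arrays lay on 3 slides, with WT replicate 1 alone on the first, p190-B-/- replicate 3 alone on the last and the other 4 arrays together on 1 slide.

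**Figure D1:**
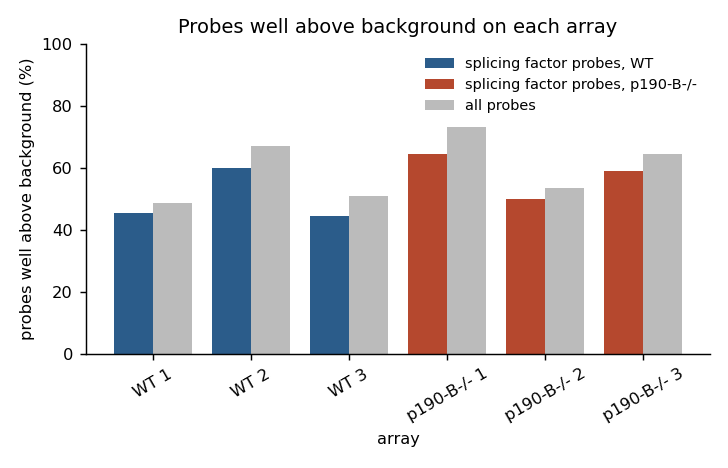
Share of probes well above background (percent) on each of the 6 arrays, with splicing factor probes in blue (WT) or red (p190-B-/-) and all probes in gray. The share of splicing factor probes was lowest on WT replicate 3 (44.5%) and highest on p190-B-/- replicate 1 (64.5%), and it lay below that of all probes on every array.

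The deleted gene itself could not serve as a check of the labels. Its 1 probe (Arhgap5, chr12:53668087-53668146, mm9) read -4.74, -5.55 and -4.44 in WT and -5.46, -2.71 and -6.01 in p190-B-/-, in log2 of the processed signal relative to the array's 75th percentile, the scale of every level below. It was above background only on p190-B-/- replicate 2, and the groups overlapped. Whether the probe lies in the deleted part of the gene is not given in the sources used here, so it checks nothing about the genotype of the cells.

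Of the 110 probes, 63 probes of 46 genes could be tested and 47 could not, since a probe had to stand above background on no fewer than 3 arrays. The limma fit called 0 of the 63, and 0 of all 25169 probes tested (0%), at an adjusted p under 0.05. At an unadjusted p under 0.05 limma passed 4 of the 63 splicing factor probes (6.35%), next to 1654 of all probes (6.57%). The 4 were probes of Hnrnpa1, Hnrnpa1l2-ps, Prpf38b and Sfrs15, of which the first pair were above background on no WT array. The methods' t-test with the same adjustment called 0, and the smallest adjusted p from limma was 0.48 among the splicing factors and 0.0733 among all probes. Without adjustment but with a 2-fold limit, neither of them a rule stated for these arrays, the methods' t-test passed 2 of the 63 splicing factors as higher in p190-B-/- and 2 as lower, where 2.31% and 4.1% of all probes passed. The 2 higher ones were again the Hnrnpa1 and Hnrnpa1l2-ps probes. These passed the filter through the p190-B-/- arrays alone, so their count carries no weight of its own. After normexp background correction the t-test gave 0 higher and 7 lower, where 1.35% and 10.54% of all probes passed. With 3 samples against 3, a two-sided exact permutation test cannot give a p below 0.1, so it could not have called any single probe.

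The groups did not overlap at all in 11 of the 62 probes with a value on every array. In 2 of them (3.23%) every p190-B-/- sample was above every WT sample, against 4.52% of all probes, and in 9 (14.5%) every p190-B-/- sample was below, against 11.6% of all probes. Both shares were near those of the array as a whole. The 9 lower ones were probes of Hnrnph1, Prpf38b, Prpf8, Sf3a2, Sfrs11, Sfrs12, Sfrs15, Snrpa and Srsf3, of which 5 remained under quantile scaling and 5 were among the 10 that normexp gave. Those of Sf3a2, Sfrs11 and Srsf3 are outside the rule for named genes and were named after their values were seen. The 2 higher ones, probes of Hnrnpa1 and of its pseudogene Hnrnpa1l2-ps, passed the filter through the p190-B-/- arrays alone. They were kept under quantile scaling, which gave 2 higher and 5 lower in all, next to 5.78% and 9.39% of all probes. They were lost under normexp, which gave 0 higher and 10 lower, next to 3.36% and 20.1% of all probes.

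Counted by probe, the splicing factors were at the level of the array, with a median difference (p190-B-/- minus WT, log2) of -0.33 for the 63 probes and -0.33 for all probes, and 31 of the 63 below the median of all. With each gene taken by its brightest tested probe, the median difference of the 46 genes was -0.57, and that of all 21748 genes -0.35. The median of all genes itself moved with the scaling, to -0.11 under quantile scaling, -0.44 under normexp and -0.23 in the deposited value table. Relative to the median of all genes the splicing factor genes were at -0.21 in the main scaling, -0.06 under quantile scaling, -0.06 under normexp, -0.21 in the value table and -0.03 over probes detected on all 6 arrays. Of the 46 genes, 34 had a negative and 12 a positive difference, and 25 (54.3%) were below the median of all genes. With slide as a block the median was -0.56, and within the slide that held both genotypes it was -0.78, where all genes were at -0.50. Without p190-B-/- replicate 3 it was -0.86, and all genes were then at -0.45. Differences between single probes ranged from -2.18 to 7.23, the upper end from a probe dark in WT, with a median standard error of 0.85, and the median within-group SD was 0.95 in WT and 0.79 in p190-B-/-. These are levels in bulk RNA of the sorted cells, so fewer cells of a type and less RNA per cell cannot be told apart.

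Family medians are given as a description, since the position of a family was not tested. The median difference of the tested probes was -0.72 for SF3 (7 probes), -0.98 for U2AF (6), -0.47 for snRNP (10), -0.32 for PRPF (8), -0.17 for SR (11) and 0.12 for hnRNP (21). Relative to the median of all probes, -0.33, these were -0.39, -0.64, -0.14, 0.01, 0.16 and 0.45 in the same order. The SR median turned positive under quantile scaling (0.04), and the hnRNP median turned negative under normexp (-0.54) and within the slide of both genotypes (-0.04). Relative to all probes the SF3 median turned positive under normexp (0.33), the PRPF median negative under quantile scaling (-0.16), the SR median negative under normexp (-0.06) and within the slide of both genotypes (-0.27), and the hnRNP median negative under normexp (-0.07). The hnRNP probes were almost evenly divided, with 11 positive and 10 negative differences. Among the positive ones, the Hnrnpa1 and Hnrnpa1l2-ps probes were above background on no WT array. The hnRNP median was -0.21 for the other 19 probes, an alternative chosen after seeing the data, and 0.12 with both probes at their lower bound. Leaving out any other pair of positive probes would also give -0.21, so the turn of sign is not particular to these probes. Only U2AF and snRNP stayed below all probes in these 3 settings, at -0.06 and -0.38 under quantile scaling, -0.44 and -0.02 under normexp, and -0.53 and -0.57 within the slide of both genotypes.

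**Figure D2:**
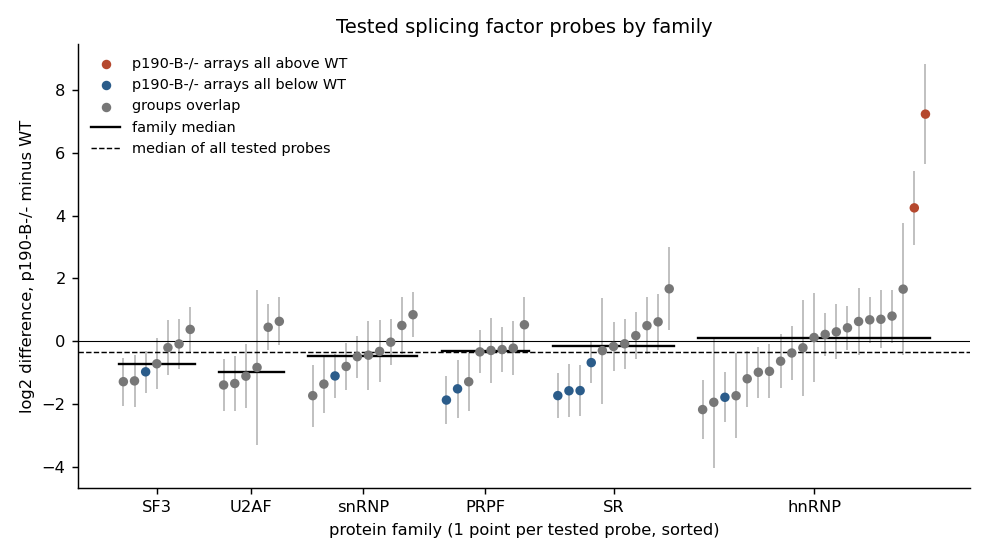
Difference between p190-B-/- and WT (log2) for each of the 63 tested splicing factor probes, by family, with standard errors as bars, the family median as a solid line and the median of all probes (-0.33) as a dashed line; red and blue mark groups that did not overlap. The hnRNP probes spread the widest, from -2.18 to 7.23 (the 2 red points, above background on no WT array, are fitted values and not measured sizes), and the family medians ran from -0.98 (U2AF) to 0.12 (hnRNP), the latter negative without the red points (-0.21) and under normexp (-0.54), with the SR median (-0.17) positive (0.04) under quantile scaling.

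Detection divided the 70 genes before any comparison. A probe above background on all 6 arrays was found for 33 genes, and no probe above background on any array for 9. Counted as probes, 37 of 110 (33.6%) were above background on all arrays and 23 (20.9%) on none, where all probes gave 35.5% and 16.7%. Probes of the hnRNP genes Hnrnpa2b1, Hnrnpd, Hnrnpm and Hnrnpr were in the second set, and so were probes of Prpf38a, Prpf39, Prpf4, Sf3a3 and Sfrs18. A dark probe did not always mean a dark gene, since Hnrnpa3, Hnrnpab, Snrpn and Srsf1 had probes of both kinds.

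Base composition of the probe went with detection. Among the 37 splicing factor probes with 21 or fewer G or C bases of 60, 15 were above background on no array and 1 on all. Among the 24 with 28 or more, 0 were dark on every array and 17 were above background on all. The mean number of arrays on which a probe was detected went from 1.35 through 2.58 and 4.23 to 5.42 over the 4 composition classes, and for all probes from 2.09 through 2.92 and 4.09 to 5.28. The gradient was thus steeper for the splicing factors but ran the same way on the whole array, and its part in the values of dim members was not tested.

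**Figure D3:**
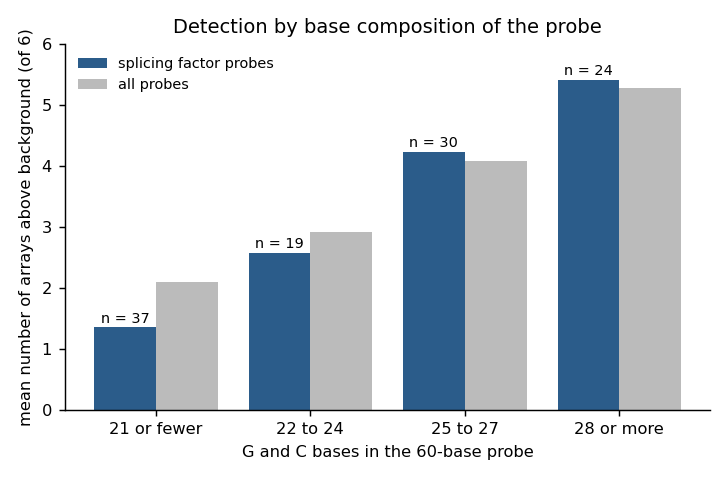
Mean number of arrays (of 6) on which a probe was well above background, by the number of G and C bases in the probe, for splicing factors and for all probes. Splicing factors went from 1.35 arrays at 21 or fewer G and C bases to 5.42 at 28 or more.

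The SF3 subunits clamp the U2 particle onto the branch point. Sf3b1, its largest subunit, had 1 probe, whose log2 values were -4.77, -6.24 and -4.46 in WT and -0.55, -5.16 and -6.02 in p190-B-/-. Only p190-B-/- replicate 1 was above background there, so the gene most often mutated in this family was not measured well enough to be compared. Sf3b2, which binds Sf3b4 and the branch region, read -0.57, -1.27 and 0.27 in WT and -2.32, -2.14 and -0.98 in p190-B-/-. Its lowest WT value was below the highest p190-B-/- value, so the groups overlapped, with a difference of -1.29 (SE 0.76, limma adjusted p 0.638; -0.96 relative to all probes). Sf3b4 gave -1.32, -1.97 and -0.54 against -1.76, -3.88 and -1.98. The groups overlapped, and the lowest sample, p190-B-/- replicate 2, was not above background. That difference was -1.27 (SE 0.84, limma adjusted p 0.641), and -0.60 without that sample.

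Sf3a2, a subunit of the SF3a part of U2, was lower in all 3 p190-B-/- samples. Its values were 6.21, 6.18 and 6.29 in WT and 5.33, 4.62 and 5.80 in p190-B-/-. The WT samples lay within a narrow band and the groups did not overlap, yet the difference of -0.98 (SE 0.67, limma adjusted p 0.647) did not pass. The separation was lost under quantile scaling and under normexp. Sf3b5, a small subunit of the SF3b core, read -0.46, 0.21 and -0.19 in WT and -0.17, 1.05 and -0.20 in p190-B-/- with 1 of its 2 tested probes. The groups overlapped, and the probe's difference was 0.37 (SE 0.71, limma adjusted p 0.87; 0.22 under normexp). It was the 1 positive difference among the 7 tested SF3 probes, of which 4 were below the median of all probes. The other Sf3b5 probe was at -0.21. Sf3a1 and Sf3b3 were at -0.72 and -0.09. For Sf3a1, WT held both the highest value (replicate 3, -1.55) and the lowest (replicate 2, -4.03, not above background), and these samples weigh on its difference.

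U2AF reads the end of the intron, with U2af1 on the final AG and U2af2 on the pyrimidine tract. U2af1 was measured by a probe over an exon junction with values of -4.49, 3.93 and -4.46 in WT and -1.89, 0.43 and -6.07 in p190-B-/-. It was bright on WT replicate 2 alone in its group and dark on 3 arrays, and its difference of -0.84 had a standard error of 2.46 (limma adjusted p 0.922) and was -0.16 under quantile scaling and -1.92 under normexp. The other U2af1 probe read -2.45, -2.30 and -0.37 in WT and -2.82, -4.04 and -2.30 in p190-B-/-. Here WT replicate 3 was the highest and p190-B-/- replicate 2 the lowest, the remaining samples lay close together, and 4 of the 6 arrays were above background, for a difference of -1.35 (SE 0.86, limma adjusted p 0.638), which was -0.68 without WT replicate 3, -0.86 without p190-B-/- replicate 2 and -2.09 within the slide of both genotypes.

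U2af1l4, a paralogue of the small subunit, had values of 6.39, 6.04 and 8.29 in WT and 5.06, 5.43 and 6.04 in p190-B-/-. WT replicate 3 stood above the rest and p190-B-/- replicate 3 was level with the lowest WT sample, so the groups were not apart, with a difference of -1.40 (SE 0.82, limma adjusted p 0.638). That value was -0.17 under quantile scaling, -0.49 under normexp and -0.70 without WT replicate 3. U2af2 differed in the other direction. Its probe in the later part of the transcript read 3.14, 2.70 and 1.35 in WT and 3.36, 2.44 and 3.28 in p190-B-/-, a difference of 0.63 (SE 0.76, limma adjusted p 0.791). The groups overlapped, and the difference was 0.10 without the low WT replicate 3 and 1.24 under normexp. The earlier U2af2 probe, at -1.52, -1.58 and -3.15 against -1.34, -1.76 and -1.82, had the same low sample, there below background, and a difference of 0.44 (SE 0.74, limma adjusted p 0.852), which was -0.56 under normexp.

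The snRNP genes encode the proteins of the small nuclear particles, both the Sm ring that U1, U2, U4 and U5 share and the proteins of single particles. Snrpa, the U1 protein that binds a stem loop of the RNA, read 3.99, 3.50 and 4.84 in WT and 2.89, 2.69 and 3.42 in p190-B-/-. All p190-B-/- samples were below all WT samples, the closest pair differing little, and the difference was -1.11 (SE 0.70, limma adjusted p 0.638; -0.78 relative to all probes). The separation was lost under quantile scaling, where the difference was -0.60, and under normexp, where the difference was -0.18. Snrpn, an imprinted Sm protein best known from brain, gave 0.56, -0.55 and 3.04 against -1.13, -0.73 and -0.29. WT replicate 3 was far above the others and the groups overlapped, for a difference of -1.74 (SE 0.99, limma adjusted p 0.638) that was -0.72 without that sample.

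Of the Sm ring, Snrpg held the most positive tested probe of the family. This probe had values of 0.19, -0.34 and 0.28 in WT and 1.35, 0.02 and 1.28 in p190-B-/-. Replicates 1 and 3 of p190-B-/- were above all WT samples and replicate 2 was not, and the difference was 0.84 (SE 0.71, limma adjusted p 0.696; 1.17 relative to all probes). A second Snrpg probe, not tested, read -4.47, -4.99 and -3.45 in WT, none above background, and 1.51, -0.24 and -5.95 in p190-B-/-, of which 2 were above background. For a probe that no array of a group measured, the fold is a lower bound. It sets the mean of the bright group over all its samples against the mean, in the dim group, of the higher of the probe's own value and the lowest signal of any probe above background on that array. On that basis this probe was at least 2.75-fold higher in p190-B-/-, a bound that rests on replicate 1, since without it no fold above 1 was left, while without replicate 3 it was 12.6-fold.

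Snrpd2, another protein of the Sm ring, had 3 tested probes at 0.50, -0.33 and -0.45. The positive one read -2.32, -1.30 and -1.78 in WT and -3.03, -0.75 and -0.11 in p190-B-/-, so p190-B-/- held both the lowest and the highest value and WT replicate 1 was below background (SE 0.91, limma adjusted p 0.864), and under normexp it was at -0.44. Differences were -0.03 for Snrpb, -0.49 for Snrpf, -0.80 for the tested Snrpe probe and -1.37 for Snrpd1. Both Snrpc probes, for a U1 protein, were above background on p190-B-/- replicate 2 alone.

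Prpf8, the large protein at the heart of the spliceosome that holds its catalytic RNA, read 0.94, 0.47 and 3.52 in WT and 0.20, -0.16 and 0.34 in p190-B-/-. The groups did not overlap, but the gap between the lowest WT and the highest p190-B-/- sample was small beside the height of WT replicate 3. The difference was -1.52 (SE 0.92, limma adjusted p 0.638; -1.19 relative to all probes), -0.93 under normexp and -0.58 without WT replicate 3. Prpf38b, related to a yeast factor of spliceosome activation, gave -2.77, -2.98 and -1.14 in WT and -4.24, -4.59 and -3.68 in p190-B-/-. All p190-B-/- samples were lower, though WT replicate 1 and p190-B-/- replicate 2 were not above background. Its difference of -1.88 (SE 0.77; -1.54 relative to all probes) had an unadjusted limma p of 0.0412 and an adjusted p of 0.638.

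Within the PRPF family, 4 of 8 tested probes were below the median of all probes, itself negative, and 7 of the 8 had a negative difference. The exception, Prpf4b, is a kinase of other Prpf proteins. It read -2.46, -1.31 and -1.08 in WT and -1.98, -1.75 and 0.44 in p190-B-/-, with only p190-B-/- replicate 3 above all WT samples and WT replicate 1 below background (difference 0.52, SE 0.88, limma adjusted p 0.854), and it turned to -0.31 under normexp and -0.67 within the slide of both genotypes. Prpf31, a U4 particle protein, was at -1.29, Prpf6 at -0.30, Prpf3 at -0.27 and the 2 Prpf40b probes at -0.22 and -0.34. A single high WT sample weighs on the values of Prpf31 (replicate 3, 2.24) and Prpf6 (replicate 1, 1.97). Prpf19 and Prpf18 were above background on p190-B-/- replicate 3 alone, at 0.77 and -2.60. In this family 7 of 17 probes were dark on every array, the largest number after the 8 of 34 hnRNP probes.

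SR proteins bind exonic enhancers through an RNA recognition motif and recruit the spliceosome through a tail of arginine and serine. Srsf2, the SR gene mutated in myelodysplasia, read -0.84, 0.18 and 1.06 in WT and 0.02, 0.70 and 0.20 in p190-B-/-. The p190-B-/- samples lay inside the WT range, and the difference was 0.17 (SE 0.75, limma adjusted p 0.949). A second Srsf2 probe was above background on p190-B-/- replicate 3 alone, at -1.37. Srsf3, the smallest SR protein, gave 4.58, 4.65 and 4.95 against 3.80, 3.88 and 4.45 with 1 of its 2 tested probes. The groups did not overlap, the difference was -0.68 (SE 0.65, limma adjusted p 0.729), and the separation was lost under quantile scaling and under normexp. The other tested Srsf3 probe was at -0.30.

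Srsf5 had the most positive tested SR probe, with -2.98, 1.03 and -2.62 in WT and -1.32, -0.41 and 2.16 in p190-B-/-. It was above background on 1 WT array and on all p190-B-/- arrays, the groups overlapped because of WT replicate 2, and the difference was 1.67 (SE 1.32, limma adjusted p 0.682). It was 0.19 under normexp, -0.07 within the slide of both genotypes and 0.66 without p190-B-/- replicate 3. Srsf1 was at 0.49 and Srsf9 at -0.08. The positive Srsf1 value came from p190-B-/- replicate 3 (1.13), since replicates 1 and 2 (-1.20 and -1.01) were below the WT mean (-0.85). Single probes of Srsf1, Srsf3, Srsf6 and Srsf7 were above background on 1 array only, which for Srsf1 and Srsf3 was WT replicate 2 (2.60 and 1.22) and for Srsf6 p190-B-/- replicate 2. By the bound described for Snrpg, those of Srsf1 and Srsf3 were at least 3.05-fold and 2.18-fold lower in p190-B-/-, and no bound was left without WT replicate 2. Of the Srsf7 probes, 1 was above background on p190-B-/- replicate 1 alone and 1 on p190-B-/- replicate 2 alone.

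Several probes still carried older Sfrs names for proteins that have a domain rich in arginine and serine but are not classical SR proteins. Sfrs15, now Scaf4, binds the tail of RNA polymerase II and read -0.60, -0.74 and -1.56 in WT and -2.08, -3.34 and -2.68 in p190-B-/-. All 3 p190-B-/- samples were below all WT samples, replicate 2 below background, and the difference was -1.73 (SE 0.71; -1.40 relative to all probes) with an unadjusted limma p of 0.0402 and an adjusted p of 0.638. Sfrs14, now Sugp2, gave -3.91, -1.88 and -1.57 against -2.71, -0.83 and -1.98. WT replicate 1 was not above background and the groups overlapped (difference 0.61, SE 0.90, limma adjusted p 0.832), and the sign turned under normexp (-0.68). The Sfrs11 probe had -1.05, 1.69 and -0.21 in WT and -1.47, -1.29 and -1.55 in p190-B-/-. The p190-B-/- samples were close together below the spread-out WT samples, for a difference of -1.58 (SE 0.85, limma adjusted p 0.638). The high WT replicate 2 weighs on that value.

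Sfrs12, now Srek1, is an SR-related splicing regulator whose probe (chr13:104531985-104532044, mm9) was bright on every array. Its values were 11.64, 10.37 and 12.78 in WT and 9.78, 9.93 and 10.36 in p190-B-/-. WT replicate 3 was the highest, and WT replicate 2 was almost level with p190-B-/- replicate 3, so the groups were only just apart. That separation was lost under quantile scaling, under normexp and in the deposited value table. The difference of -1.57 (SE 0.81, unadjusted limma p 0.086, adjusted p 0.638) became -0.59 under normexp, -0.14 under quantile scaling and -0.98 without WT replicate 3.

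The probe of Sfrs12 ends in a run of alternating G and T of 30 bases. A GT run of 16 bases or more was found in 72 probes of 72 other genes, and all of them were above background on all 6 arrays. Taken as deviations from each probe's own mean, their medians were 0.57, -0.38 and 1.92 in WT and -0.95, -0.83 and -0.27 in p190-B-/-. The Sfrs12 probe deviated by 0.83, -0.44 and 1.97 in WT and by -1.03, -0.88 and -0.45 in p190-B-/-. In both the highest sample was WT replicate 3, as it was in 72 of the 72 other probes. The difference between the groups had a median of -1.40 (range -1.67 to -1.23) over the 72, next to -1.57 for Sfrs12, and 62 of them share 18 bases or more with the Sfrs12 probe. The groups did not overlap in 4 of the 72, and in the medians p190-B-/- replicate 3 lay above WT replicate 2, where in Sfrs12 it lay just below. The scaling number that each value is divided by was 125, 227 and 53.9 in WT and 385, 321 and 252 in p190-B-/-. Over the 6 arrays the order of the Sfrs12 values was the reverse of the order of those numbers. Neither the part of the scaling number nor that of the repeat in the value of Sfrs12 was tested further.

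**Figure D4:**
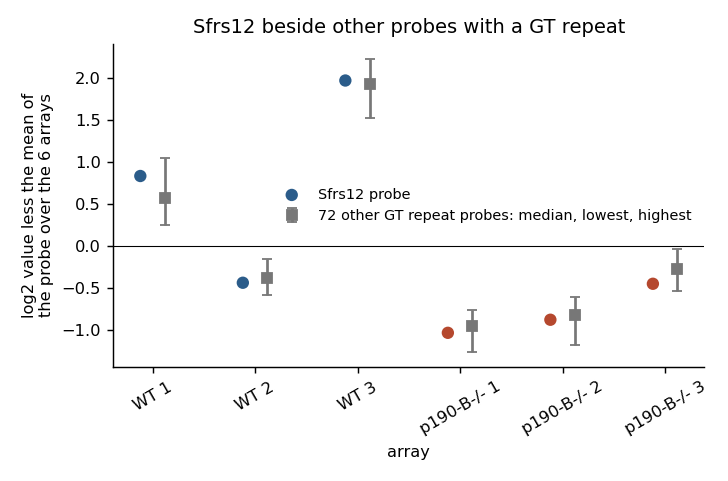
Deviation of each array's log2 value from the probe's own mean, for the Sfrs12 probe (circles) and for 72 probes of other genes with a GT run of 16 bases or more (squares at the median, bars from lowest to highest). WT replicate 3 was the highest array for Sfrs12 (1.97) and for each of the 72 others (median 1.92), and it had the lowest scaling number. The groups were apart for Sfrs12 and for 4 of the 72.

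The hnRNP proteins coat nascent transcripts and often block splice sites. Hnrnpa1 is among the most abundant of them, and its probe at chr15:103072642-103072701 (mm9) was dark in WT and bright in p190-B-/-. Its values were -4.73, -6.19 and -4.41 in WT and 2.30, 5.50 and -1.44 in p190-B-/-. No WT array was above background and all 3 p190-B-/- arrays were, replicate 2 the highest, so the fold is a bound, at least 35.2-fold higher in p190-B-/-. Without replicate 2 the bound was 10.9-fold and without replicate 3 it was 121-fold. Its limma adjusted p was 0.48, and since the probe passed the filter through the p190-B-/- arrays alone, the fitted difference of 7.23 rests on WT values below background and is not a measured size. That fitted value was 7.18 with slide as a block and 9.20 within the slide of both genotypes, but 3.27 under normexp, where the groups overlapped, a smaller ratio than the bound, which holds for the main scaling only. The other Hnrnpa1 probe was above background on no array.

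A probe of Hnrnpa1l2-ps, a processed pseudogene of the same gene family, showed the same pattern. Its log2 values were -4.54, -4.36 and -4.19 in WT, none above background, and -0.55, 2.55 and -2.35 in p190-B-/-, all above background. This was at least 7.48-fold higher in p190-B-/- (limma adjusted p 0.638), 2.97-fold without replicate 2 and 16.2-fold without replicate 3. The fitted difference, with the same limit, was 4.24, and it was 4.22 with slide as a block, 5.27 within the slide of both genotypes and 1.04 under normexp, where the groups overlapped. A second Hnrnpa1l2-ps probe, further along the transcript, read 2.14, 2.79 and 4.22 in WT and 1.09, 2.10 and 3.08 in p190-B-/-. It was above background on every array, its groups overlapped and its difference was negative, -0.96 (SE 0.86, limma adjusted p 0.714), -0.38 without WT replicate 3, -0.46 without p190-B-/- replicate 1 and -1.91 within the slide of both genotypes.

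Probes above background on all p190-B-/- arrays and on no WT array, like that of Hnrnpa1, were 2 of the 110 splicing factor probes (1.82%), against 285 of 39429 on the whole array (0.723%). The reverse, all WT arrays and no p190-B-/- array, held 0 of the 110 and 0.0533% of all probes. Over the 285 probes the median values were -4.45, -4.88 and -4.14 in WT and -2.57, -1.17 and -2.26 in p190-B-/-. Replicate 2 of p190-B-/- was the highest in 147 of them, as it was for both splicing factor probes. The same imbalance between directions was thus present over all probes, 285 against 21, on arrays whose scaling number was also higher in p190-B-/-, and the part of that number was not tested.

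Hnrnpa3, an A/B type hnRNP close to Hnrnpa1, was covered by 7 probes, of which 5 were tested, and they did not give 1 direction. The probe at base 858 of the transcript, over an exon junction, read 5.61, 8.21 and 7.33 in WT and 5.15, 5.85 and 3.62 in p190-B-/-. Only p190-B-/- replicate 2 was above the lowest WT sample, and the difference of -2.18 (SE 0.95, limma adjusted p 0.638; -1.85 relative to all probes) was -1.12 under quantile scaling and -1.27 under normexp. The other junction probe, at base 644 with 2.02, 6.70 and -2.84 against 1.22, -0.40 and -0.78, had a difference of -1.95 (SE 2.08, limma adjusted p 0.762). WT replicate 3 was below background there and WT replicate 2 far above the rest. The probe shares 19 bases with a probe of the predicted gene Gm11847, which was also highest on WT replicate 2 (6.20). The 3 tested probes further along the transcript were at 0.21, 0.63 and 0.68, all 3 of them negative under normexp (-0.55, -0.54 and -0.50), and the last was 0.31 without WT replicate 3. The one at 0.63 shares 54 bases with a probe of the predicted gene Gm14730, whose difference had the other sign (-0.52). An untested one was above background on p190-B-/- replicates 1 and 2 only (-0.11 and 2.21), at least 3.66-fold higher in p190-B-/- and 1.14-fold without replicate 2.

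Hnrnph1, which binds runs of G, gave -2.40, -2.55 and -1.17 in WT and -4.16, -4.53 and -2.78 in p190-B-/-. The groups did not overlap, replicate 2 of p190-B-/- was not above background, and the difference was -1.79 (SE 0.79; -1.46 relative to all probes) with an unadjusted limma p of 0.0541 and an adjusted p of 0.638. Hnrnpf, its close relative, had 1 probe at 0.80 (SE 0.84, limma adjusted p 0.759) and 1 at -0.38 (SE 0.85, limma adjusted p 0.894). Within the slide of both genotypes these were 0.012 and -0.69, and under normexp 0.29 and -0.70. The first read -1.34, -1.19 and 0.23 in WT and -1.10, 0.17 and 1.03 in p190-B-/-, and the second -1.28, -2.81 and -1.76 against -2.60, -3.35 and -1.02. In both the groups overlapped, with p190-B-/- replicate 3 the highest sample (0.30 for the first without it), and p190-B-/- replicate 2 was below background for the second.

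Hnrnpc, which binds runs of U and keeps cryptic exons out, had 2 tested probes that varied more within than between groups. The earlier one gave -1.32, -2.80 and 2.03 in WT and 0.58, 0.52 and -2.84 in p190-B-/- (difference 0.12, SE 1.43, limma adjusted p 0.984; 0.93 within the slide of both genotypes). The later one gave -0.11, 2.45 and -1.08 against 0.75, -1.70 and 7.17 (difference 1.66, SE 2.10, limma adjusted p 0.801). Its difference was -0.89 without p190-B-/- replicate 3 and -1.16 within the slide of both genotypes. The high sample was WT replicate 3 for the earlier probe and p190-B-/- replicate 3 for the later. The later probe shares 20 bases with a probe of the predicted gene Gm12696, whose value on p190-B-/- replicate 3 was 5.34, its highest. A probe of Hnrnpl was above background on WT replicate 2 alone (1.76), at least 3.56-fold lower in p190-B-/- with no bound left without that sample. It shares 25 bases with a probe of the predicted gene Gm5360, also highest on WT replicate 2 (0.76). Bounds of at least 1.62-fold and 1.099-fold lower, for an Hnrnpa0 and an Snrpa1 probe, also rested on 1 WT array each.

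**Figure D5:**
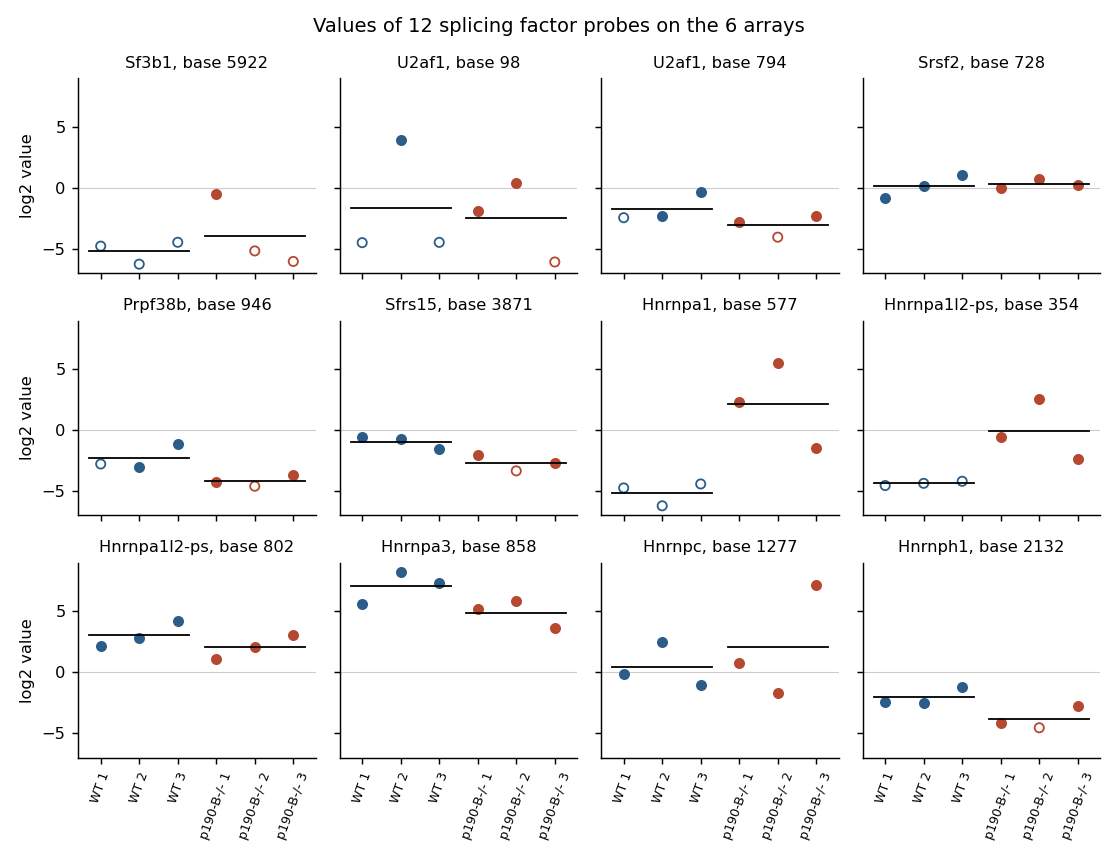
Log2 value (relative to the array's 75th percentile) of 12 splicing factor probes on each of the 6 arrays, with filled and open points for values above and not above background and lines at the group means. The first Hnrnpa1 and Hnrnpa1l2-ps probes have open points on all WT arrays, and p190-B-/- samples lie fully below WT for Prpf38b, Sfrs15 and Hnrnph1.

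Probes of 1 gene could thus disagree. Of the 13 genes with several tested probes, 5 had differences of opposite sign. The median spread between the differences of a gene's probes was 0.58, and beside Hnrnpa1l2-ps, where 1 of the probes gives only a bound, the widest were Hnrnpa3 (2.86), Hnrnpc (1.54) and Hnrnpf (1.18). A run of 18 bases or more was shared by 10 splicing factor probes with a probe of another gene, the Sfrs12 probe left aside. In 8 such pairs both probes were tested, and the differences had the same sign in 6 and opposite signs in 2. Of the 94 probes with a position on a chromosome and a gene in the name table, 94 lay on their gene's strand, and 6 probes spanned an exon junction.

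Which array was extreme was also looked at over the 62 probes with 6 values. WT replicate 3 gave the highest value in 23 of them (37.1%), against 32.7% of all probes, and p190-B-/- replicate 2 the lowest in 18 (29.0%), against 25.4%. Differences also varied with signal level. The 8 splicing factor probes with a mean log2 above 2 had a median difference of -1.04 (1 positive, 7 negative), and all probes in that class -0.74. In the class from 0 to 2 the splicing factors were at -0.22 and all probes at -0.17. Under quantile scaling the brightest class was at -0.15 for splicing factors and 0.02 for all probes.

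Other genes of the pathway were taken in lists by function, each gene by 1 probe, and limma called 0 in every list. At an unadjusted limma p under 0.05 there were 4 of 33 further core spliceosome genes, 0 of 4 of the minor spliceosome, 1 of 5 SR kinases, 1 of 10 of the SMN complex, 3 of 14 of the junction and export list and 2 of 25 other regulators, where 6.57% of all probes passed. In the same order, 17 of 33, 2 of 4, 2 of 5, 6 of 10, 9 of 14 and 10 of 25 were below the median of all genes. Of 48 further core spliceosome genes, 33 could be tested, with 12 positive and 21 negative differences, and a median of -0.57. Phf5a, a small SF3b subunit with a name outside the rule, read -3.15, -3.01 and -2.85 in WT and 1.75, 3.38 and -1.69 in p190-B-/-. All p190-B-/- samples were above all WT samples, though only 1 WT array was above background, and the difference was 4.15 (SE 1.23, limma adjusted p 0.638), 2.08 under normexp. Smndc1, a factor of particle assembly, had 1.45, -2.04 and -1.22 in WT and -3.37, -4.59 and -2.77 in p190-B-/-, all lower with p190-B-/- replicate 2 below background (difference -2.97, SE 1.04, limma adjusted p 0.638), -1.57 under normexp and -1.94 without WT replicate 1.

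The minor spliceosome, which removes the rare U12 class of introns, had 11 genes on the array and 4 tested, with 1 positive and 3 negative differences and a median of -0.50. Zrsr2, its subunit mutated in myelodysplasia, read 0.08, 0.68 and 4.57 in WT and 1.84, 2.84 and -0.26 in p190-B-/-. Samples of both groups were mixed along that range (difference -0.30, SE 1.34, limma adjusted p 0.950; -0.013 under normexp). Its 2 further probes were above background on no WT array, 1 of them on p190-B-/- replicates 1 and 3 (-3.70 and -3.03) and 1 on replicate 1 alone (-0.14), and neither gave a bound above 1. Scnm1 was at 0.69, at 1.28 under normexp, 1.25 within the slide of both genotypes, 0.25 without p190-B-/- replicate 1 and 0.30 without WT replicate 2. Snrnp35 was at -0.69, at -1.04 within that slide, and turned to 0.12 under normexp.

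Kinases that phosphorylate SR proteins had 5 of 8 genes tested, 3 positive and 2 negative, with a median of 0.03. Clk2 was the lowest, at -0.30, 1.90 and 0.38 in WT and -1.55, -1.54 and -1.13 in p190-B-/-, groups that did not overlap (difference -2.07, SE 0.78, limma adjusted p 0.638). Srpk2, above background on 1 WT array, was at 0.71, at 1.42 within the slide of both genotypes and at -0.43 under normexp. The SMN complex, which loads the Sm ring, had 10 of 14 genes tested, 4 positive and 6 negative, with a median of -0.93. Gemin5, its RNA-reading subunit, gave -1.20, 0.07 and -2.09 against 0.26, 0.97 and 2.29, all p190-B-/- samples being higher (difference 2.25, SE 0.87, limma adjusted p 0.638; 1.28 under normexp), and Strap, a partner of the complex, was at -1.34 (SE 0.67).

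For the exon junction complex and mRNA export, 14 of 21 genes were tested, 2 positive and 12 negative, with a median of -1.16. Of the 14, 9 were below the median of all genes, which was itself negative. Thoc7, an export subunit, had -2.80, -3.01 and -2.06 in WT and -4.76, -5.14 and -4.20 in p190-B-/-. Its groups were fully apart, though only 2 WT arrays and 1 p190-B-/- array were above background (difference -2.08, SE 0.69, limma adjusted p 0.638), while Srrm2 was at 1.53 (SE 1.56), at 0.27 under normexp, 0.08 without WT replicate 1 and, within the slide of both genotypes, at -0.80. Of 42 other splicing regulators 25 were tested, 14 positive and 11 negative, with a median of 0.02. Luc7l, a U1-associated protein, read -0.43, -1.06 and -1.85 in WT and 1.99, 3.62 and 0.87 in p190-B-/-, all higher (difference 3.27, SE 0.89, limma adjusted p 0.638). Ybx1, a cold-shock RNA-binding protein, read 4.11, 3.19 and 4.19 against 1.76, 2.14 and 1.49, all lower (difference -2.03, SE 0.68, limma adjusted p 0.638; -1.07 under normexp).

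Markers of the sorted cells and of other blood cells were read on the same arrays. Their sums add the signals of different probes, so they follow the brightest probe of a list, which is named, and rank no transcripts. All 14 stem cell markers were on the array, of which 10, 11 and 9 were above background in WT and 10, 10 and 11 in p190-B-/-. The summed levels of the 12 with a value on every array, in multiples of the array's 75th percentile, were 8.16, 11 and 31.8 against 22.3, 7.71 and 29.0, with Mecom the brightest. Slamf1, which encodes the CD150 used for the sort, and Procr and Mycn were above background on no array, while Ly6a, for Sca-1, was above background on all 6 and Kit on 5. Of the 9 genes the gate excludes 7 were on the array, with 6, 6 and 5 above background in WT and 6, 5 and 6 in p190-B-/-, summed levels of 1724, 890 and 5841 against 531, 619 and 939 and Itgam the brightest. Cd48, the marker the cells should lack, was above background on all 6 arrays, at 2.02, 0.09 and -1.41 in WT and 0.38, 0.96 and 2.05 in p190-B-/-. Of the markers that define the gate, the Slamf1 probe was thus dark and the Cd48 probe was not. Both probes have 21 G or C bases of 60. Of all array probes with 21 or fewer, 36.2% were above background on no array and 13.9% on all 6. A dark probe of this class therefore does not show that the RNA was missing, and whether Slamf1 RNA was present was not tested.

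Several lists, that of the stem cell genes (31.8) among them, had their highest sum on WT replicate 3, and most of these sums rest on 1 gene. In the stem cell list that gene was Tal1 (4.45 there), where Mecom read 0.77. The 8 B cell markers had 5, 7 and 7 genes above background in WT and 5, 4 and 7 in p190-B-/-, and summed levels of 6.29, 5.49 and 726 against 6.45, 4.58 and 6.34. Nearly all of the sum on WT replicate 3 came from Cd79a (9.47 there). The 10 erythroid markers summed to 585, 325 and 986 in WT and 222, 212 and 299 in p190-B-/-, led by Ermap, with 6, 6 and 4 against 6, 5 and 6 above background and Hbb-b1 and Tfrc on none. The 7 monocyte markers summed to 74.8, 62.4 and 164 against 47.1, 47.1 and 34.5, led by Csf1r, with 6, 7 and 6 against 7, 6 and 6 above background. The 8 T cell markers summed to 85.7, 40.6 and 140 against 33.9, 31.4 and 54.7, led by Cd4, with 7, 6 and 6 against 8, 5 and 7 above background. Gene by gene, WT replicate 3 was the highest array for 5 of the 12 stem cell markers, 3 of the 7 that the gate excludes, 7 of 8 for B cells, 3 of 10 erythroid, 4 of 7 monocyte and 2 of 8 T cell markers. For the stem cell, gate-excluded, B cell, erythroid, monocyte and T cell sums WT replicate 3 was the highest sample, as it was for many splicing factors. Each sum is divided by the array's scaling number, which was lowest on WT replicate 3 (53.9) and 125 to 385 on the other arrays. A sum can thus be high there without more signal before scaling. The parts of that number and of these cells in the sums and in the splicing factor values were not tested.

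The other lists were more even. The 10 neutrophil markers summed to 12.7, 15.2 and 7.35 in WT and 7.40, 8.18 and 6.11 in p190-B-/-, led by Lcn2, with 5, 8 and 8 against 9, 6 and 8 above background and S100a9 on none. The 8 megakaryocyte markers summed to 59.7, 62.9 and 97.2 against 35.9, 29.5 and 101, led by Itgb3, with 5, 7 and 5 against 6, 5 and 5 above background. The 8 stroma and endothelium markers summed to 16.9, 19.5 and 16 against 11.3, 16.8 and 30.9, led by Kdr, with 5, 7 and 4 against 7, 5 and 5 above background and Pdgfrb on none. The median differences of the lists were -0.05 for stem cell genes, -0.85 for genes the gate excludes, 0.11 for erythroid, -0.65 for neutrophil, -0.92 for monocyte, -1.43 for B cell, -0.32 for T cell, -0.21 for megakaryocyte and -0.00 for stroma markers.

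Promoters of the splicing factor genes were searched for motifs as a description, with no test. RefSeq promoters (GRCm38.p6, 250 bases before to 50 after the start) were found for 59 of the 70 genes and for 27025 genes in all. The sequence CCGGAAG, a match to the core bound by ETS factors, was present on either strand in 20 of the 59 (33.9%) and in 9.12% of all promoters. TATAAA was present in 6 (10.2%) and in 14.2% of all, GCATGCG, part of the NRF1 motif, in 4 (6.78%) and 3.64%, and AAGATGGC, part of the YY1 motif, in 3 (5.08%) and 2.88%. The median number of CG pairs was 25 in the splicing factor promoters and 7 in all. These are matches of letters and carry no measurement of binding in these cells.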

How the data were processed

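Total RNA of LSK-SLAM cells from 3 WT and 3 p190-B-/- secondary recipients was amplified as cDNA and hybridised in 1 colour (Cy3) to Agilent whole mouse genome arrays. The deposited intensity values were spot signals that the authors' service laboratory read with Feature Extraction 10.5.1.1, background-subtracted by that program and not normalised between arrays. The deposited value table held the same signals, each array divided by 1 number that put its median near 1. How that number was derived is not stated.

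Processed signals were put on a log2 scale and centred on the 75th percentile of each array. Control spots were left out, outlier spots set missing and repeated spots averaged, so that 43020 spots gave 39429 probes. Through the RefSeq table (GRCm38.p6), 26412 probes were named from their accession and 3854 from their gene name, while 9163 had no match (106, 3 and 1 among the splicing factor probes). Coordinates are those of the files (mm9). A tested probe was well above background on no fewer than 3 arrays and missing on at most 1 array a group, the second condition being an addition to the planned filter. Genotypes were compared in R 4.3.3 with limma 3.58.1 (lmFit, eBayes) and Benjamini-Hochberg adjustment over all 25169 tested probes, and with the methods' t-test, for which no array threshold is given and an unadjusted p of 0.05 with a 2-fold limit was set here. The fit was first tested on simulated data. The number of arrays limits the precision.

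Named were, in each of 6 families, the 2 tested probes with the smallest limma p in each direction, then Sf3b1, Srsf2, U2af1 and Zrsr2 whatever their values, the 4 genes whose tested probes differed most, probes above background on all arrays of 1 group and none of the other, and in each companion list the gene with the smallest limma p in each direction. Other probes given by a value were chosen after their values were seen. Some items, probe sequences among them, are not reported here. The members, companion lists and marker lists were chosen with earlier results of these data known.

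Alternatives were quantile scaling, normexp on mean signal and local background (offset 50), no filter or a strict one (above background on 6 of 6 arrays), the value table, slide as a random block, the slide of both genotypes alone, a replicate block, trended and robust variance, the mean over a gene's probes, and each array left out in turn. Leaving out probes with a GT run or dark in 1 genotype, and the alternatives for the hnRNP median, were added after seeing the data.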

Additional observations from a re-analysis of the deposited data

How the results depend on the processing

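No splicing factor probe was called by limma (0 of 63, and 0 in the named genes) under any alternative run, among them the methods' t-test with adjustment, with 3 to 8 probes at an unadjusted p under 0.05 where 63 were tested. The median of the splicing factor genes stayed negative, from -0.86 to -0.17, and was -0.66 with no filter, -0.49 with the strict filter (a probe above background on all 6 arrays), -0.39 with the mean over a gene's probes and -0.51 to -0.86 with an array left out. Without the GT repeat probes, an alternative chosen after seeing the data, it was -0.49. With the replicate number as a replicate block it was -0.57 and limma again called 0. The median of the tested hnRNP probes (0.12), followed over the alternatives after seeing the data, turned to -0.64 with no filter, -0.26 with the strict filter, -0.10 without WT replicate 3, -0.27 without p190-B-/- replicate 1 and -0.49 without p190-B-/- replicate 3. Same-numbered samples deviated together only weakly (correlations across probes of 0.00901, 0.0161 and 0.0864, all under 0.1), and not every sample correlated best with its own number. With 3 arrays a group, such values cannot settle whether same-numbered samples were isolated together, and the labels give only the number.

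Counts moved more. The methods' t-test gave 2 higher, both above background on no WT array, and 2 lower. It gave 0 and 7 under normexp, 0 and 0 with the strict filter, and 1 and 2 within the slide of both genotypes. Of all probes 2.31% and 4.1% passed in the main setting, 1.35% and 10.54% under normexp, 1.41% and 4.80% with the strict filter, 2.11% and 3.63% within the slide, and 1.69% to 2.71% and 1.72% to 6.73% with an array left out. With an array left out it gave 0 to 3 higher (0 without WT replicate 1, 2 or 3 or p190-B-/- replicate 1) and 0 to 4 lower (4 without WT replicate 2, 1 without p190-B-/- replicate 1, 0 without p190-B-/- replicate 2). Groups that did not overlap, 2 higher and 9 lower, were 2 and 5 under quantile scaling, 0 and 10 under normexp, and 0 and 6 with the strict filter, where all probes gave 5.78% and 9.39%, 3.36% and 20.1%, and 3.28% and 14.0%. Within the slide of both genotypes they were 4 and 21, where all probes gave 12.7% and 33.3%. With an array left out they were 2 to 6 higher (4 without WT replicate 1, 5 without WT replicate 2, 6 without p190-B-/- replicate 2) and 11 to 16 lower (15 without WT replicate 1, 14 without WT replicate 2, 16 without p190-B-/- replicate 3), since fewer samples separate more easily. All probes then gave 7.55% to 10.03% higher and 15.4% to 25.03% lower, 25.03% without p190-B-/- replicate 3. There were 8 lower without the GT repeat probes.

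Of 46 named and tested probes, 27 kept their direction in all alternatives and 19 did not, and none of the 46 was called. Under normexp the difference turned to -0.56 for U2af2 (base 929), -0.44 for Snrpd2 (base 427), -0.31 for Prpf4b, -0.68 for Sfrs14, -0.55, -0.54 and -0.50 for Hnrnpa3 (bases 1732, 1796 and 5126), -0.063 for Hnrnpc (base 259), 0.12 for Snrnp35 and -0.43 for Srpk2. Within the slide of both genotypes it turned to -0.36 for Snrpd2, -0.67 for Prpf4b, -0.047 for Sfrs14, -0.26 for Srsf2, -0.073 for Srsf5, -1.16 for Hnrnpc (base 1277) and -0.80 for Srrm2. With an array left out the signs were mixed for Sf3b5 (-0.039 to 0.59), U2af1 base 98 (-2.31 to 1.96), U2af2 base 929 (-0.090 to 0.72), Snrpd2 (-0.094 to 1.37), Prpf4b (-0.25 to 0.96), Sfrs14 (-0.11 to 1.06) and Srsf2 (-0.31 to 0.64). The same held for Hnrnpa3 bases 644 (-4.35 to 0.42), 1732 (-0.0054 to 0.63) and 1796 (-0.47 to 1.20), Hnrnpc bases 259 (-0.94 to 1.48) and 1277 (-0.89 to 3.54), Hnrnpf base 2412 (-1.03 to 0.14), Zrsr2 (-1.15 to 1.097) and Srpk2 (-0.28 to 1.46). The cause was not tested. The fitted value of Hnrnpa1 ranged from 5.54 to 9.01 and the first Hnrnpa1l2-ps probe from 2.91 to 5.36 with an array left out, lowest without p190-B-/- replicate 2 in both. Signal over background limits the rest, since 47 of 110 probes stood above it on too few arrays to be tested.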
